A study of Mus musculus with 7 samples.

Results

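The mouse mitochondrial chromosome carries 37 genes, and all of them are rows whose names start with mt- in the expression table of 38026 rows. They comprise 13 protein-coding genes, 2 ribosomal RNA genes and 22 transfer RNA genes, and the rule that chose them used only the name. RNA was sequenced from 7 subcutaneous pancreatic ductal adenocarcinoma (PDA) tumors of C57BL/6 mice, taken 2 weeks after inoculation and given no treatment. The cancer cells were of 1 line, called 1242, from a KPC mouse tumor, a model in which Pdx1-Cre acts in the pancreatic lineage. All of the cells carried Cas9 from a lentivirus with puromycin selection, together with a scrambled guide RNA in 4 tumors (sgScramble, replicates 1 to 4) or a guide RNA against Krt19 in 3 tumors (sgKrt19, replicates 5, 6 and 8). The study made both selected polyclonal lines and single-cell clones, and the labels do not say which of these, or which of the Krt19 guides, formed the sequenced tumors. By the methods of the study, mice were bought at 6 weeks of age and kept for 2 weeks before use, and their sex is not in the labels. Nothing in the labels says that the tumors came from separate mice, so p-values measure the spread between these 7 libraries.

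Mitochondrial DNA is a small circle that encodes core subunits of the respiratory chain together with the ribosomal and transfer RNAs that translate them inside the organelle. Both strands are transcribed by the polymerase POLRMT into long RNAs, and enzymes cut out the transfer RNAs that punctuate them, which frees the messenger and ribosomal RNAs between. Complexes I, III and IV pump protons and complex V, the ATP synthase, uses the gradient to make ATP. All other subunits and every protein that copies, transcribes or processes this DNA are encoded in the nucleus. The question put to the libraries was whether RNA from the mitochondrial genes differed between tumors with intact and with edited Krt19.

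Values are normalized read counts, that is, reads per gene divided by a size factor for each library. The libraries held between 40781199 and 44972100 reads. Krt19 itself, which encodes the edited keratin, was lower in the sgKrt19 tumors, at 1606, 1960 and 2470 against 17841 to 27619 in the sgScramble tumors. Differences between groups were tested with limma on log2(value + 1) over the 21322 rows that reached 10 in 3 or more libraries, and a row was called at an adjusted p under 0.05. By that rule 34.0% of all tested rows were called, 17.9% higher and 16.0% lower in sgKrt19 tumors, and this is the background for each count given here. The ranges of the 2 groups did not overlap in 41.1% of tested rows, with the sgKrt19 tumors higher in 21.7% and lower in 19.3%.

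RNA from 4 of the 7 mitochondrial complex I genes and from 5 of the 20 tested transfer RNA genes was higher in the sgKrt19 tumors. Of the 35 mitochondrial rows that passed the filter, 9 were called and all 9 were higher in sgKrt19. They were mt-Nd1, mt-Nd2, mt-Nd3 and mt-Nd6, which encode membrane subunits of complex I, and mt-Tl1, mt-Ti, mt-Ts1, mt-Te and mt-Tp, which encode transfer RNAs for leucine, isoleucine, serine, glutamate and proline. The shares called, 4 of 13 protein-coding genes and 5 of 20 tested transfer RNA genes, came to 30.8% and 25.0%, beside a background of 17.9% called higher and 34.0% called in either direction, so a count of calls of this size does not set the mitochondrial genes apart from other genes. The log2 fold change was above 0 in 13 of 13 protein-coding genes with a median of 0.44, in both ribosomal RNA genes, and in 17 of 20 tested transfer RNA genes with a median of 0.54. Over all tested rows it was above 0 in 50.5%, with a median of 0.0072. The mitochondrial genes are transcribed as long shared RNAs and share 1 size factor per library, so their directions are not independent of each other. When values were scaled to total reads instead, mt-Nd4l (−0.10) and mt-Atp8 (−0.19) were below 0, and the median of all rows was −0.21. Tumors are mixtures, so more cells rich in mitochondria and more mitochondrial RNA per cell cannot be told apart in these libraries.

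**Figure D1:**
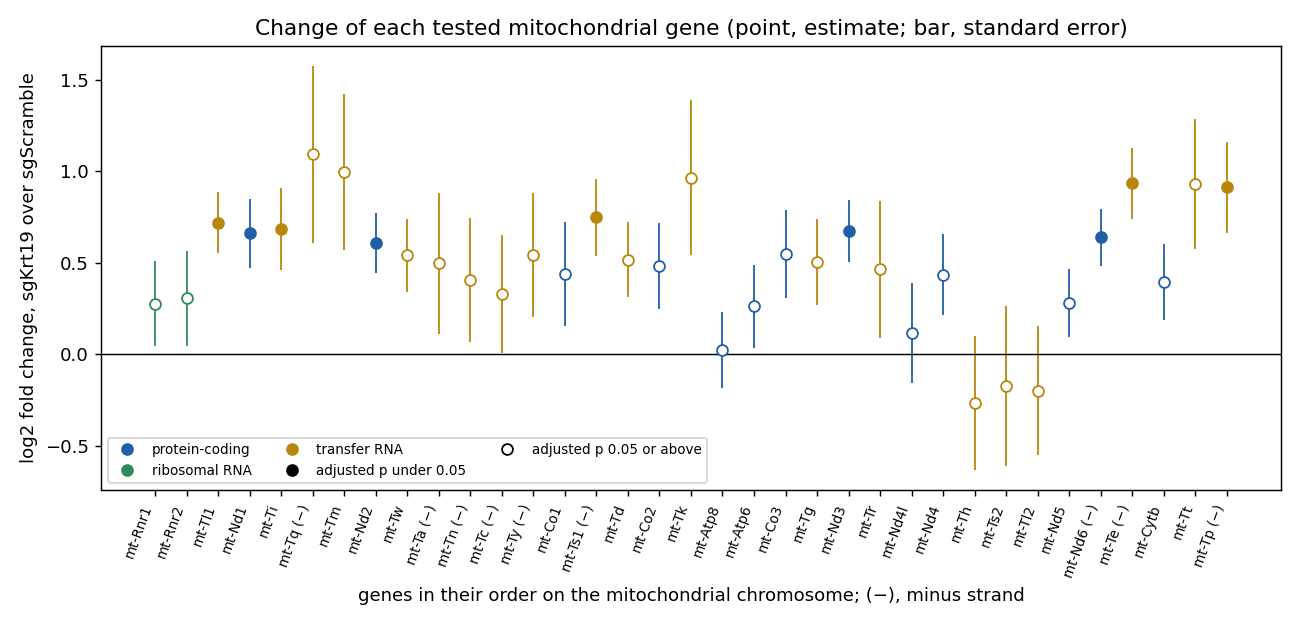
Log2 fold change of sgKrt19 over sgScramble tumors (vertical axis) for the 35 tested mitochondrial genes in their order on the chromosome (horizontal axis). Points are estimates and bars are standard errors. The 9 filled points, all above 0, are the called genes, and mt-Th, mt-Ts2 and mt-Tl2 are the 3 below 0.

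Complex I, the NADH dehydrogenase that feeds electrons into the chain, has 7 mitochondrially encoded subunits, all of which lie in its membrane arm. mt-Nd1 (chrM:2751-3707, plus strand) read 58330, 82727, 70350 and 74026 in sgScramble tumors 1 to 4 and 130914, 109964 and 97733 in sgKrt19 tumors 5, 6 and 8. Every sgKrt19 tumor was above every sgScramble tumor, with a log2 fold change of 0.66 (standard error 0.19 and adjusted p = 0.0222 by limma). mt-Nd2 (chrM:3914-4951, plus strand), one of the proton-pumping subunits, read 21119, 29511, 21489 and 28132 in sgScramble tumors and 40518, 39597 and 33681 in sgKrt19 tumors. Its groups were also apart, by 0.61 (standard error 0.16 and adjusted p = 0.0178 by limma). mt-Nd3 (chrM:9459-9806, plus strand), which forms part of the link between the membrane arm and the peripheral arm, read 13891, 14446, 13333 and 11578 in sgScramble and 28001, 17640 and 19164 in sgKrt19 tumors. The groups were apart by 0.67 (standard error 0.17 and adjusted p = 0.0132 by limma), and tumor 5 was the highest of the sgKrt19 tumors. mt-Nd6 (chrM:13552-14070) is the one protein-coding gene on the minus strand. Unless the counting used strand, which is not given, its row may also hold reads from plus-strand RNA. It read 19286, 22131, 23674 and 20628 in sgScramble and 40134, 27715 and 33180 in sgKrt19 tumors, and was higher by 0.64 (standard error 0.15 and adjusted p = 0.0111 by limma).

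The other 3 complex I genes lie next to each other or nearby on the plus strand, and their groups overlapped. mt-Nd4 (chrM:10167-11544), a proton-pumping subunit, read 39672, 69657, 44309 and 63740 in sgScramble and 71395, 80914 and 63346 in sgKrt19 tumors, which gave a log2 fold change of 0.44 (standard error 0.22 and adjusted p = 0.149 by limma). mt-Nd4l (chrM:9877-10173), a small membrane subunit that shares 7 bases with mt-Nd4, read 4823, 9627, 4840 and 8867 against 6289, 9775 and 6179. Here sgScramble tumors 2 and 4 and sgKrt19 tumor 6 formed the high values and the other 4 tumors the low values, whatever the guide, and the log2 fold change was 0.12 (standard error 0.27 and adjusted p = 0.764 by limma). mt-Nd5 (chrM:11742-13565), the largest complex I gene on the chromosome, read 29078, 43920, 29756 and 40643 against 43973, 47190 and 37972, for a log2 fold change of 0.28 (standard error 0.18 and adjusted p = 0.254 by limma).

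The mitochondrial genes of complexes III, IV and V gave 0 calls among 6 with limma. At an unadjusted p under 0.05, limma counted 0 of 1 in complex III, 1 of 3 in complex IV and 0 of 2 in complex V, while among the same groups edgeR called 0, 1 and 0 and DESeq2 called 0, 3 and 0 at an adjusted p under 0.05. mt-Cytb (chrM:14145-15288), the cytochrome b of complex III, had a log2 fold change of 0.40 (SE 0.21). mt-Co1 (chrM:5328-6872), which carries the catalytic center of cytochrome c oxidase, read 386384, 579810, 450431 and 475701 in sgScramble and 755080, 592831 and 569352 in sgKrt19 tumors. sgScramble tumor 2 lay within the sgKrt19 range, and the log2 fold change was 0.44 (standard error 0.28 and adjusted p = 0.252 by limma). mt-Co2 (chrM:7013-7696), which accepts electrons from cytochrome c, read 166555 to 226701 in sgScramble and 235922, 345963 and 266957 in sgKrt19 tumors 6, 5 and 8. mt-Co3 (chrM:8607-9390), the third core subunit, read 184577 to 220140 against 243498, 397176 and 274248 in the same tumors. For both the groups did not overlap, and the log2 fold changes of 0.48 (SE 0.24) and 0.55 (SE 0.24) had limma adjusted p of 0.135 and 0.101. In complex V, mt-Atp6 (chrM:7927-8607), part of the proton channel, and mt-Atp8 (chrM:7766-7969), a small stator subunit, share 43 bases. The log2 fold change was 0.26 (standard error 0.23 and adjusted p = 0.388 by limma) for mt-Atp6 and 0.025 (standard error 0.21 and adjusted p = 0.935 by limma) for mt-Atp8, whose means were 36631 and 36620.

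**Figure D2:**
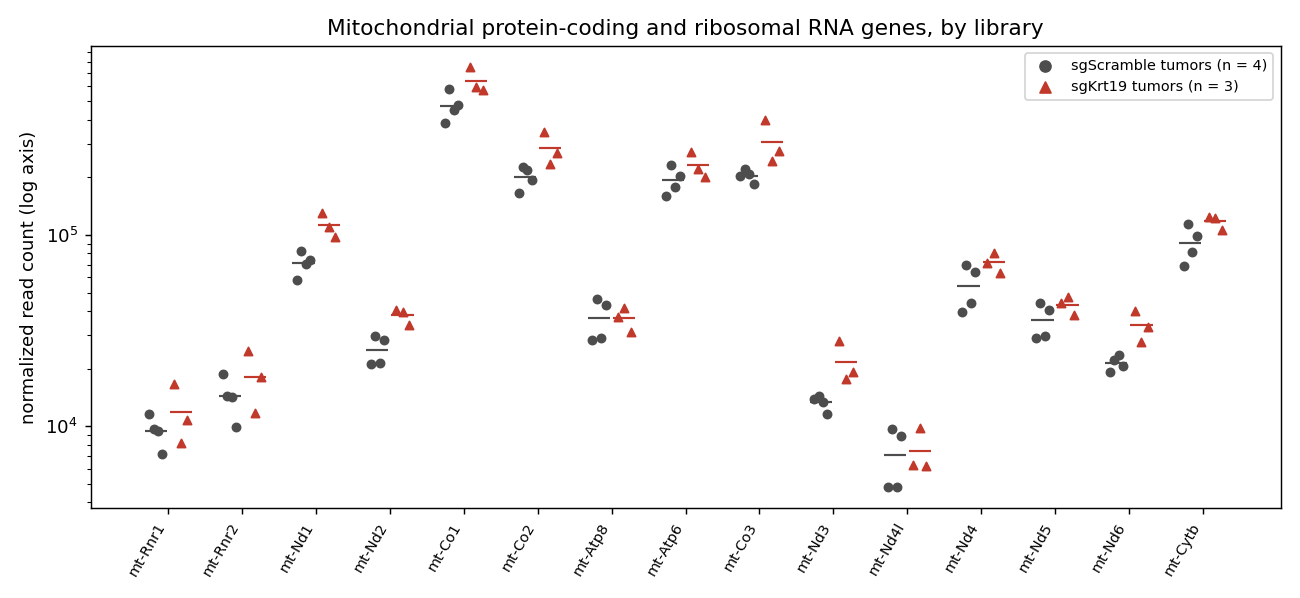
Normalized read count (vertical log axis) of the 2 ribosomal RNA and 13 protein-coding mitochondrial genes (horizontal axis, in order on the chromosome) in each library. Circles are the 4 sgScramble tumors, triangles the 3 sgKrt19 tumors and short lines the group means. The triangles are all above the circles for mt-Nd1, mt-Nd2, mt-Co2, mt-Co3, mt-Nd3 and mt-Nd6, and the groups overlap for the others.

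Levels between genes were compared per kilobase of gene. In sgScramble tumors mt-Co1 and mt-Co2 held the highest values among protein-coding genes, at 306202 and 294333 normalized reads per kilobase. mt-Nd5, mt-Nd4l and mt-Nd2 held the lowest, at 19654, 23701 and 24145. Of these genes mt-Co1, mt-Co2 and mt-Nd4l match pseudogenes on chromosome 1, described below, and how shared reads were counted is not given. The order is therefore one of rows in the table and may not be that of the RNAs. mt-Co1 alone made up 32.2% to 34.3% of protein-coding mitochondrial reads in sgScramble and 32.7% to 33.1% in sgKrt19 tumors. Shares of that total do not depend on the size factor of a library. For mt-Nd1 the share was 4.86%, 4.89%, 5.12% and 5.12% in sgScramble tumors and 5.71%, 6.14% and 5.61% in sgKrt19 tumors, with every sgKrt19 tumor higher. For mt-Atp6 it was 13.3%, 13.7%, 13.01% and 14.0% against 11.8%, 12.4% and 11.6%, with every sgKrt19 tumor lower. The shares of the other 11 protein-coding genes overlapped between groups.

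All 37 mitochondrial genes together took 3.02%, 4.35%, 3.60% and 3.92% of reads in sgScramble tumors and 4.74%, 4.19% and 4.09% in sgKrt19 tumors. sgScramble tumor 2 lay above sgKrt19 tumors 6 and 8, so the total overlapped between groups, with means of 3.72% ± 0.56 (SD, n = 4) and 4.34% ± 0.35 (SD, n = 3). Protein-coding genes took 2.87% to 4.20% and 3.91% to 4.50% of reads. Ribosomal RNA took 0.0449% to 0.0729% and 0.0451% to 0.0811%, and transfer RNA 0.0782% to 0.0995% and 0.0984% to 0.158%. These totals were not tested.

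mt-Rnr1 and mt-Rnr2 encode the small and the large ribosomal RNA of the mitochondrial ribosome. mt-Rnr1 (chrM:70-1024) read 11624, 9699, 9496 and 7161 in sgScramble and 16637, 8156 and 10731 in sgKrt19 tumors. mt-Rnr2 (chrM:1094-2675) read 18813, 14481, 14286 and 9972 against 24651, 11789 and 17996. Tumor 5 was the highest and tumor 6 lay inside the sgScramble range for both. The log2 fold changes were 0.28 (standard error 0.23 and adjusted p = 0.377 by limma) and 0.31 (standard error 0.26 and adjusted p = 0.379 by limma). limma counted 0 of 2 at an unadjusted p under 0.05, and edgeR and DESeq2 called 0. Per kilobase, mt-Rnr1 at 9942 and mt-Rnr2 at 9095 were below every protein-coding gene in sgScramble tumors. The labels name the molecule as polyA RNA, whereas the methods of the study name a kit for total RNA, and whether ribosomal RNA was depleted is not stated. The level of the ribosomal RNAs against the messenger RNAs therefore cannot be read as their level in the tumors.

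Of the 22 transfer RNA genes 20 were tested, and mt-Tf and mt-Tv, at no more than 4 reads in any library, were not. Their genes are 59 to 75 bases long, shorter than the 76 bases of a sequencing read, so a read that overlaps one either came from a fragment no longer than that gene or also held its neighbor. Mature transfer RNA and longer RNA that still contains it were thus counted in the same row. The 5 called genes are printed as the DNA strand that matches the RNA, taken from GENCODE M21 transcripts on the GRCm38 assembly, with the anticodon in capitals.
mt-Tl1: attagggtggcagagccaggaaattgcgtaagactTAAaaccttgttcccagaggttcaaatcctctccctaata
mt-Ti: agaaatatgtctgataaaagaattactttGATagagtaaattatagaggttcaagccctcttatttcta
mt-Ts1: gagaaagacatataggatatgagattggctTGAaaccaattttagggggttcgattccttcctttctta
mt-Te: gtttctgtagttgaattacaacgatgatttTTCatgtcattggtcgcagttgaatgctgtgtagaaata
mt-Tp: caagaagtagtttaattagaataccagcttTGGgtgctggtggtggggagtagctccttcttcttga

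mt-Tl1 (chrM:2676-2750, plus strand) lies between mt-Rnr2 and mt-Nd1 with no base between them. It read 153, 156, 155 and 147 in sgScramble and 244, 310 and 212 in sgKrt19 tumors, a log2 fold change of 0.72 (standard error 0.17 and adjusted p = 0.00887 by limma). The sgScramble tumors were close to each other and all 3 sgKrt19 tumors were above them. mt-Ti (chrM:3706-3774, plus strand) shares 2 bases with mt-Nd1 on the other side of that gene. It read 347, 260, 352 and 303 against 740, 470 and 369, a log2 fold change of 0.69 (standard error 0.22 and adjusted p = 0.0381 by limma), and sgKrt19 tumor 8 was only just above the sgScramble tumors. mt-Tl1, mt-Nd1 and mt-Ti are therefore 3 neighbors on 1 strand that were all called.

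mt-Ts1 (chrM:6870-6938, minus strand) held 75.0% to 80.9% of all transfer RNA reads. It read 24493, 29532, 30742 and 22932 in sgScramble and 62646, 34058 and 42593 in sgKrt19 tumors, a log2 fold change of 0.75 (standard error 0.21 and adjusted p = 0.0209 by limma). It overlaps the last 3 bases of mt-Co1 on the opposite strand, and its reads cannot be told from those of mt-Co1 RNA that runs on unless the counting used strand. The ratio of mt-Ts1 to mt-Co1 was 0.0634, 0.0509, 0.0683 and 0.0482 in sgScramble and 0.0830, 0.0574 and 0.0748 in sgKrt19 tumors, and the groups overlapped.

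mt-Te (chrM:14071-14139, minus strand) adjoins mt-Nd6 on the same strand with no base between, and both were called. It read 2432, 2405, 3176 and 2355 against 6474, 3542 and 5186, for a log2 fold change of 0.93 (standard error 0.19 and adjusted p = 0.00527 by limma), the smallest adjusted p of the 35. mt-Tp (chrM:15356-15422, minus strand), the last gene before the control region, read 63.2, 36.6, 37.4 and 45.4 against 92.5, 72.0 and 91.4, for a log2 fold change of 0.91 (standard error 0.25 and adjusted p = 0.0181 by limma). By strand, 3 of 8 tested minus-strand and 2 of 12 tested plus-strand transfer RNA genes were called, and the difference between strands was not tested. Whether the counting used strand is not given. The rows of mt-Te, mt-Tp and the other genes in this split may therefore also hold reads from RNA of the opposite strand.

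The remaining 15 tested transfer RNA genes were not called. mt-Tw, for tryptophan, had groups that did not overlap, at 138 to 156 against 169 to 295, and a limma adjusted p of 0.0589. Estimates above that of any called gene but with wide errors came from low rows: mt-Tq at 1.09 (SE 0.48), mt-Tm at 0.999 (SE 0.43) and mt-Tk at 0.97 (SE 0.42). For mt-Tk, for lysine, tumor 5 read 156 and the other 6 tumors 26.9 to 49.4. mt-Tt was at 0.93 (SE 0.36), mt-Ty at 0.54, mt-Td at 0.52, mt-Tg at 0.51, mt-Ta at 0.50, mt-Tr at 0.47, mt-Tn at 0.41 and mt-Tc at 0.33. mt-Th, mt-Ts2 and mt-Tl2 are 3 adjacent genes between mt-Nd4 and mt-Nd5 and were the only tested members below 0, at −0.26, −0.17 and −0.20. Their values were low, 14.0 to 120 in all libraries, and sgKrt19 tumor 6 held the lowest value of all 7 libraries for each.

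The libraries also differed among themselves in the balance of short and long genes, and this moved with several mitochondrial values. A length index was computed per library as the median log2 deviation of 310 nuclear protein-coding genes under 1000 bases minus that of 5297 genes over 5000 bases. Only genes with a mean value of at least 100 were used. Length here is annotated exon length, so the index does not measure the length of RNA. Genes of the nuclear lists given below were not left out, so some may be part of the index. It was 0.061, −0.45, −0.048 and −0.57 in sgScramble tumors 1 to 4 and 0.69, 0.087 and 0.26 in sgKrt19 tumors 5, 6 and 8. Every sgKrt19 tumor was above every sgScramble tumor, so the length index and the guide cannot be told apart in this design. Within groups, sgScramble tumors 2 and 4 and sgKrt19 tumor 6 had the lowest index of their groups. The same tumors had the highest mt-Nd4l and mt-Atp8 values of their groups.

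Ratios between neighboring genes, which do not depend on size factors, also set those 3 tumors apart within their groups. mt-Nd4l over mt-Nd4 was 0.122, 0.138, 0.109 and 0.139 in sgScramble and 0.0881, 0.121 and 0.0975 in sgKrt19 tumors. mt-Atp8 over mt-Atp6 was 0.177, 0.198, 0.162 and 0.213 against 0.137, 0.186 and 0.155. mt-Nd6 over mt-Nd5, a pair on opposite strands that share 14 bases, was 0.663, 0.504, 0.796 and 0.508 against 0.913, 0.587 and 0.874. This ratio compares the strands only if the counting used strand, which is not given. In each of the 3 ratios the groups overlapped, and tumors 2, 4 and 6 were at the high end of their group for the first pair of ratios and at the low end for mt-Nd6 over mt-Nd5. Transfer RNA reads were 2.72%, 2.16%, 2.89% and 2.07% of protein-coding mitochondrial reads in sgScramble and 3.51%, 2.43% and 3.08% in sgKrt19 tumors, again with tumors 2, 4 and 6 lowest in their groups. Ribosomal RNA reads were 1.18% to 2.54% and 1.11% to 1.80% of protein-coding reads.

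**Figure D3:**
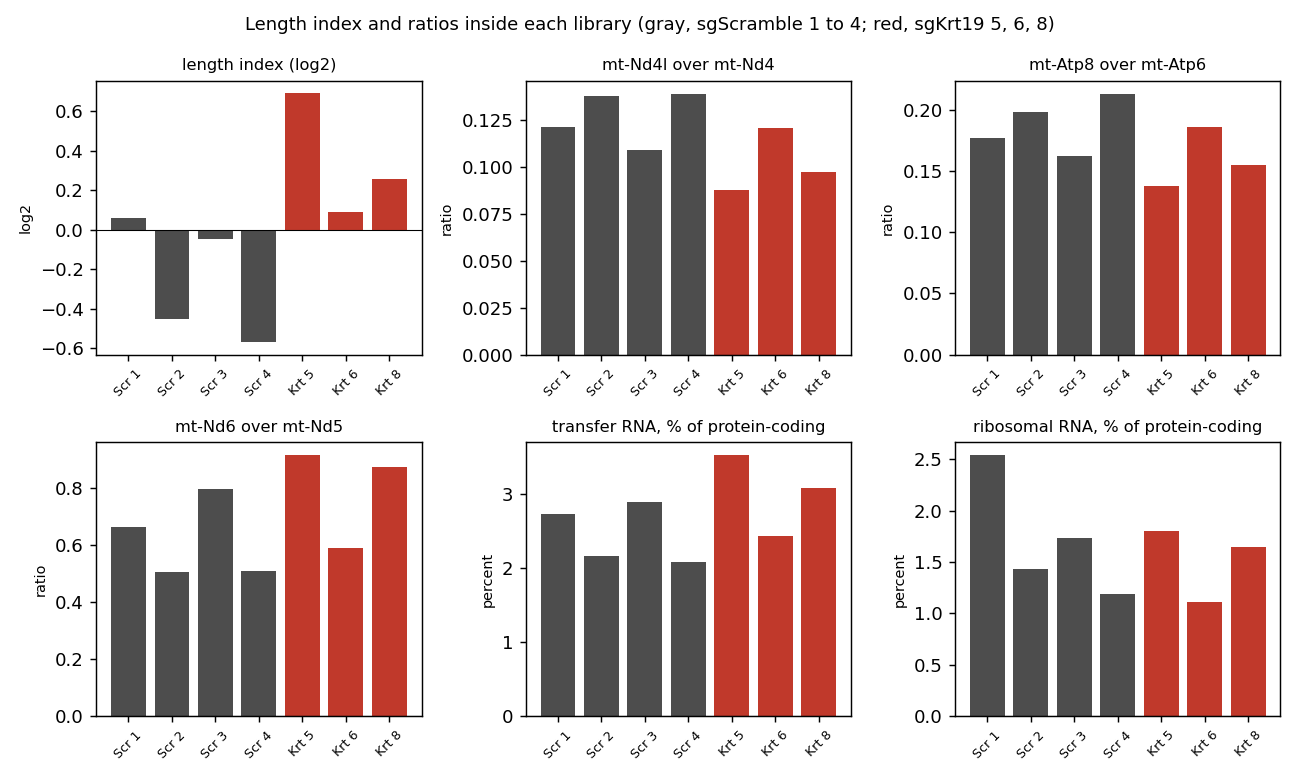
The length index (log2), 3 ratios of mitochondrial genes, and transfer and ribosomal RNA reads as a percent of protein-coding mitochondrial reads, 1 bar per library (gray, sgScramble 1 to 4 and red, sgKrt19 5, 6 and 8). Only the length index separates the groups, and sgScramble 2 and 4 and sgKrt19 6 are at one end of their groups in the other panels.

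With the length index as a second term in limma, an alternative added after the data were seen, 13.2% of all tested rows were called, 7.04% higher. Among mitochondrial genes 3 were called, all higher in sgKrt19 and all in complex I. They were mt-Nd2, with a log2 fold change of 0.85 (adjusted p = 0.0220), mt-Nd4 with 0.91 (adjusted p = 0.0306) and mt-Nd4l with 0.92 (adjusted p = 0.0376). Of the 9 genes called with the guide as the only term, mt-Nd2 alone was called in both. The estimate of mt-Nd1 was 0.73 with the index (adjusted p = 0.0633 by limma) and 0.66 without, and that of mt-Tp was 0.60 and 0.91. All 13 protein-coding genes stayed above 0, both ribosomal RNAs moved below 0, and 0 of 20 transfer RNAs were called, with 3 at an unadjusted p under 0.05. Among the transfer RNAs, mt-Tl1 had a log2 fold change of 0.79 with the index and 0.72 without, while mt-Ts1 had 0.35 and 0.75. The part of the length balance in the group difference was not tested beyond this fit.

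**Figure D4:**
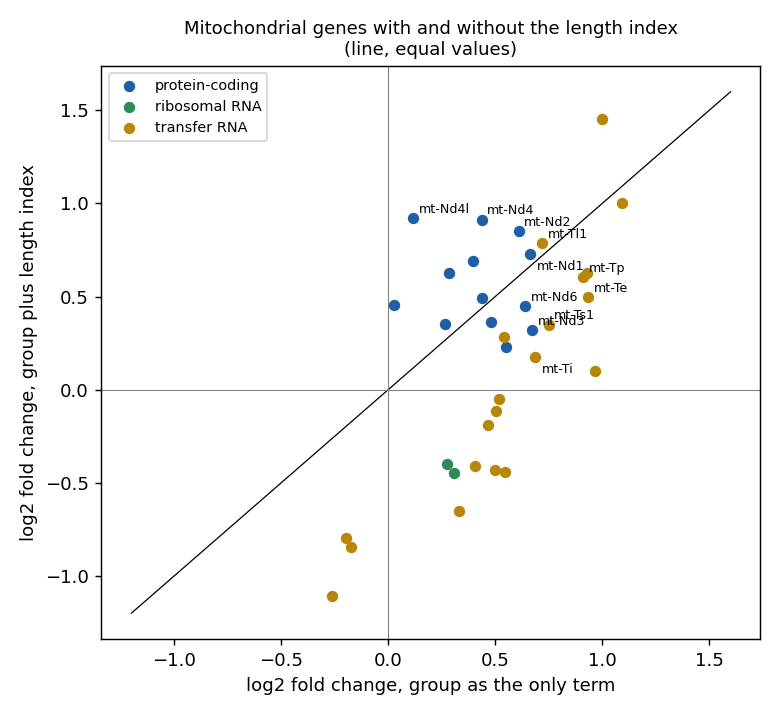
Log2 fold change of sgKrt19 over sgScramble for the 35 tested mitochondrial genes with the guide as the only term (horizontal axis) and with the length index added (vertical axis), colored by class. Protein-coding genes remain above 0 on the vertical axis, both ribosomal RNAs are below 0, and named points were called in at least 1 of the fits.

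The calls also depended on single libraries. mt-Nd3, mt-Nd6, mt-Tl1 and mt-Te were called whichever 1 library was left out. Without sgKrt19 tumor 5, those 4 were the only mitochondrial genes called, and the protein-coding count fell from 4 to 2 and the transfer RNA count from 5 to 2. Without sgKrt19 tumor 6 the protein-coding count was also 2, since mt-Nd1 and mt-Nd2 were no longer called, and without sgScramble tumor 4 the transfer RNA count was 3, since mt-Ti and mt-Ts1 were not. mt-Tp was not called without sgScramble tumor 2, sgKrt19 tumor 5 or sgKrt19 tumor 8. With edgeR on the recovered reads mt-Co3 was added to the 9, and with DESeq2 mt-Co1, mt-Co2, mt-Co3, mt-Tw, mt-Td and mt-Tk were added. edgeR called 33.7% of all tested rows, 17.3% higher, and DESeq2 37.4%, 19.3% higher. With values scaled to total reads in place of size factors, mt-Ti and mt-Nd2 were not called and the other 7 were, beside 37.1% of all rows called and 10.2% called higher.

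Part of the mitochondrial chromosome has a copy in nuclear DNA on chromosome 1, and the rows of that copy carried almost the same values. GENCODE M21 annotates 7 unprocessed pseudogenes there, at chr1:24611535-24616197 on the minus strand of GRCm38. They match mt-Nd4, mt-Nd4l, mt-Nd3, mt-Co3, mt-Atp6, mt-Co2 and mt-Co1, in this order along chromosome 1. The rows of 4 of them, Gm28438, Gm28437, Gm10925 and Gm28661, were within 1% of mt-Nd3, mt-Co3, mt-Atp6 and mt-Co2 in every library. Gm10222 was at 0.990 to 0.993 of mt-Nd4l. Gm28439, whose 876 bases are identical to part of mt-Nd4, held 0.405 to 0.535 of its value. Gm29216, with 482 identical bases and 1 mismatch against mt-Co1, was lower than mt-Co1 in every library.

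Of the 4 pairs within 1%, mt-Nd3 and Gm28438 differ at 1 base and the other pairs at none, and these windows show what a read would have to cover to tell the pair apart. The first 76 bases of mt-Nd3, which is 1 read length, are printed with the matching stretch of Gm28438, both as the strand of the gene. The capital marks the single base that differs, T3C, the mitochondrial base first and positions counted from 1 at the start of mt-Nd3.
mt-Nd3: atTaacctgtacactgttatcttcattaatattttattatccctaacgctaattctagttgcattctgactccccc
Gm28438: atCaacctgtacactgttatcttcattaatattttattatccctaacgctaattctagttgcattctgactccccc

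mt-Nd3 read 28001 in sgKrt19 tumor 5 and Gm28438 read 27929, and over all libraries Gm28438 held 0.997 to 0.999 of mt-Nd3. Values this close in every library do not separate the mitochondrial from the nuclear row. The 4 copies within 1% held 1.30% to 2.05% of reads and the whole block 1.83% to 2.98%. The stretches between the pseudogenes have the spacing of the mitochondrial chromosome. Between Gm29216 and Gm28661 lie 140 bases, as many as between the matching ends of mt-Co1 and mt-Co2, where mt-Ts1 and mt-Td lie. Between Gm28661 and Gm10925 lie 233 bases, as many as between mt-Co2 and mt-Atp6, where mt-Tk and mt-Atp8 lie. The gaps that match those holding mt-Tg and mt-Tr are 69 and 74 bases long, against 69 and 73 on the mitochondrial chromosome. The sequence of these stretches on chromosome 1 was not analysed here. Reads of the called genes mt-Nd3 and mt-Ts1 may therefore fit 2 places, while the called genes mt-Nd1, mt-Nd2, mt-Nd6, mt-Tl1, mt-Ti, mt-Te and mt-Tp lie outside the stretch of the mitochondrial chromosome that these pseudogenes span. With the copies within 1% added, mitochondrial sequence took 4.32% to 6.07% of reads in sgScramble and 5.80% to 6.79% in sgKrt19 tumors. The groups still overlapped. Gm28437 held 0.99999 to 1.00005 of mt-Co3, so the same reads may have been entered in both rows. The summed share may then count reads more than once, and it is not a measured share of mitochondrial RNA.

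**Figure D5:**
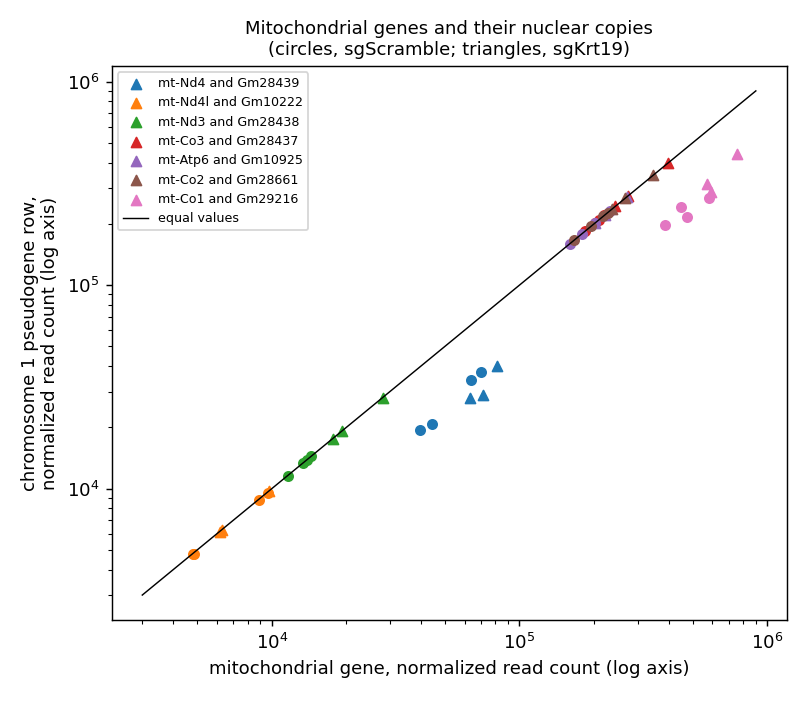
Normalized read count of each of 7 mitochondrial genes (horizontal log axis) and of the matching pseudogene row on chromosome 1 (vertical log axis) in each library. Circles are sgScramble and triangles sgKrt19 tumors. Points for mt-Nd3, mt-Nd4l, mt-Co2, mt-Co3 and mt-Atp6 lie on the line of equal values, and those for mt-Nd4 and mt-Co1 lie below it.

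The nuclear genes that maintain, transcribe and process mitochondrial DNA did not move as a group in the direction of the mitochondrial genes. Over 4 lists, 62 genes were tested, 2 were higher and 8 lower in sgKrt19 tumors, and the median log2 fold change was −0.016. The share called, 16.1%, was below the 34.0% of all tested rows. Polrmt, the RNA polymerase, was at −0.055 (limma adjusted p = 0.794), and Tfam, which packs the DNA and opens its promoters, at 0.22 (limma adjusted p = 0.149). None of the 10 tested transcription genes was called by limma, edgeR or DESeq2, and 1 had an unadjusted p under 0.05 in each. Polg, the DNA polymerase, was at −0.14 and Twnk, its helicase, at −0.15, neither of them called. In the list for DNA upkeep 3 of 17 were lower and 0 higher. That is 17.6%, near the 16.0% of all tested rows called lower, so the count does not set this list apart. Rrm2b, a ribonucleotide reductase subunit that supplies nucleotides, fell by 0.57 on the log2 scale (limma adjusted p = 0.0120), with all 3 sgKrt19 tumors at 435 to 534 and the sgScramble tumors at 601 to 818. Lig3, the mitochondrial DNA ligase, was lower at −0.48 and Mpv17, an inner membrane protein needed for DNA upkeep, at −0.43. With the length index as a second term, Rrm2b and Lig3 were not called (adjusted p = 0.201 and 0.231 by limma), Mpv17 was lower and Dna2, a nuclease and helicase, was higher by 0.78 (adjusted p = 0.0215 by limma). Genes outside the naming rule that are given for their value with the length index, here and in the lists that follow, were chosen after their values were seen.

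Among 27 tested genes of RNA processing, modification and decay, 2 were higher and 1 lower. The share called was 11.1%, beside 34.0% of all tested rows. Rexo2, an exonuclease that degrades very short RNAs in mitochondria, read 1790, 1327, 1607 and 1334 in sgScramble and 2852, 2747 and 2730 in sgKrt19 tumors. The groups were far apart, with a log2 fold change of 0.89 (standard error 0.13 and adjusted p = 0.000721 by limma). Fastkd2, an RNA-binding protein of mitochondrial RNA granules, was higher by 0.34 (limma adjusted p = 0.0371). Mrm1, a ribosomal RNA methyltransferase, was lower at −0.45 (limma adjusted p = 0.0208). With the length index Rexo2 was the 1 called gene of this list, higher by 0.62 (adjusted p = 0.0169 by limma). Lrpprc, which stabilizes mitochondrial messenger RNAs, was at 0.23 and was not called (limma adjusted p = 0.0878).

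Of 10 tested regulators of mitochondrial content 4 were lower and 0 higher, beside 16.0% lower and 17.9% higher over all tested rows. Ppargc1a, the coactivator PGC-1α that promotes mitochondrial gene expression, read 128, 148, 205 and 250 in sgScramble and 34.7, 49.0 and 49.4 in sgKrt19 tumors. It fell by 1.99 on the log2 scale (standard error 0.26 and adjusted p = 0.000476 by limma), at 30 to 270 reads per library. The 13 protein-coding mitochondrial genes were each above 0, and a link between these changes was not tested. Pprc1, a related coactivator, was at −0.44 and Gabpa, a subunit of the transcription factor NRF-2, at −0.44. With the length index Ppargc1a remained lower at −1.51 (adjusted p = 0.0242 by limma), Pprc1 and Gabpa, at −0.079 and −0.19, were not called, and Ppard, a nuclear receptor of lipid metabolism, was called higher by 0.46 (adjusted p = 0.0418 by limma).

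Tissue markers moved with the groups as well. Summed values of 10 skeletal muscle genes were 297 to 2883 in sgScramble tumors and 21264 to 30684 in sgKrt19 tumors, and 10 of 10 were called higher. Skeletal muscle is rich in mitochondria. In sgScramble tumors 1 to 4 the muscle sum was 307, 358, 2883 and 297, beside 3.02%, 4.35%, 3.60% and 3.92% of reads in mitochondrial genes. In sgKrt19 tumors 5, 6 and 8 it was 30305, 21264 and 30684, beside 4.74%, 4.19% and 4.09%. Heart and slow muscle genes summed to 149 to 240 against 299 to 872, with 1 of 2 tested genes called higher and Myl3 at no more than 3 reads in every library. Epithelial cancer cell markers summed to 132670 to 182454 against 274727 to 281540, with 5 of 8 called higher, and leukocyte markers to 18048 to 26974 against 23589 to 38431, with 5 of 8 called higher. Endothelial markers had 2 of 4 called higher, at 2667 to 4248 against 4182 to 4484. Fibroblast, adipocyte and red blood cell markers had overlapping ranges and 0 called by limma, with 0, 1 and 0 genes at an unadjusted p under 0.05, and of these lists edgeR called 0 genes and DESeq2 called 1 fibroblast gene. The part of these cell types in the mitochondrial values was not tested.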

How the data were processed

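RNA-seq was performed on 7 subcutaneous tumors. Per the labels and the methods of the study, RNA was extracted with a Qiagen RNeasy kit and libraries were made with an Illumina TruSeq kit and sequenced as single reads of 76 bases. The authors deposited 1 table of signal values, which are read counts per gene divided by a size factor per library. In every library 100% of values were whole multiples of 1 read to within 0.1 read, so reads were recovered. The submitters' processing notes name the mm10 build. The aligner, the counter, the annotation, the use of strand and the treatment of reads that fit several places are not given in the sources used here. Positions, lengths and sequences came from GENCODE M21 (GRCm38), in which all 37 identifiers of the mt- rows matched.

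limma 3.58.1 (R 4.3.3) was fitted to log2(value + 1) with the group as the only term and a trend, over rows with at least 10 in 3 or more libraries, with Benjamini-Hochberg adjustment at 0.05. The pseudocount understates changes of low rows. edgeR 4.0.16 and DESeq2 1.42.0 on the recovered reads, other scalings, pseudocounts and filters, and leaving out each library were alternatives. Fits were tested on simulated data. Chi-square statistics between replicates were 12.6 to 53.3 per degree of freedom, so no library repeats another. Reads carry no molecular identifiers.

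The members and the lists were chosen with earlier results of these data known, so lists are described by counts and medians. All mt- protein-coding and ribosomal RNA genes and all tested transfer RNA genes were named, with Krt19, the nuclear copies, Polrmt, Tfam, Polg, Twnk, Lrpprc and Ppargc1a, and up to 3 called genes each way per nuclear list. The 4 nuclear lists cover DNA upkeep, transcription, RNA processing (27 of 28 symbols were in the table) and content regulators (10 of 13 tested), and a further list holds nuclear respiratory subunits. Marker lists cover epithelial cancer cells, skeletal muscle, heart and slow muscle, adipocytes, leukocytes, fibroblasts, endothelium and red blood cells.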

Additional observations from a re-analysis of the deposited data

Results flagged for a closer look

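Among 80 values of the sgScramble group that were searched for a library far from the other 3, 2 were found, which is 2.5%, and chance gives about 1 in 20. mt-Ts2, for serine, read 50.4 in sgScramble tumor 2 and at most 33.4 in the other 3. mt-Te, for glutamate, read 3176 in sgScramble tumor 3 and at most 2432 in the other 3, and that highest control value was still below the lowest sgKrt19 value of 3542. The sgKrt19 group, with 3 tumors, is too small for this search.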

How the results depend on the processing

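No paired analysis was possible because the groups share no replicate number. The 35 tested mitochondrial genes kept their direction and their call with a pseudocount of 0.1 or 10, without the filter on low values, and with size factors from nuclear genes. Limma without a trend changed 1 call, mt-Ti. The counts of called genes were 4 protein-coding, 5 transfer RNA and 10 nuclear upkeep genes. They became 7 and 8 with DESeq2 for the first pair, and 17 with total reads for the nuclear genes, 1 of them higher. Total reads as the scaling called 7904 of all 21306 tested rows, 2177 of them higher. The length index, an alternative chosen after seeing the data, gave 0 transfer RNA and 5 nuclear genes (3 higher and 2 lower). Under it 2808 of all genes were called in place of 7240. Leaving out 1 library gave 2 to 4 protein-coding, 2 to 6 transfer RNA and 4 to 11 nuclear genes, with the lowest without sgKrt19 tumor 5 for mitochondrial genes and without sgScramble tumor 2 (4) for nuclear genes, and 6 nuclear genes without sgKrt19 tumor 5.

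Total reads as the scaling shifted the median of all genes to −0.21 on the log2 scale, and 2177 of 7904 calls were higher in sgKrt19 against 3820 of 7240 with size factors. mt-Nd4l (−0.10) and mt-Atp8 (−0.19) were then below 0 but above that median, and mt-Ti and mt-Nd2 were not called. mt-Atp8 was also −0.013 with edgeR and −0.011 with DESeq2, and mt-Ts2 0.0059 and 0.016. With the length index, mt-Rnr1 (−0.40), mt-Rnr2 (−0.45), mt-Ta (−0.43), mt-Tn (−0.41), mt-Tc (−0.65), mt-Ty (−0.44), mt-Td (−0.049), mt-Tg (−0.12) and mt-Tr (−0.19) turned below 0, as did Tfam (−0.0036), and Polg (0.012) and Polrmt (0.061) turned above 0. Leaving out 1 library gave −0.00025 to 0.51 for mt-Rnr1, −0.094 to 0.57 for mt-Tc, −0.086 to 0.15 for mt-Atp8, −0.10 to 0.29 for mt-Nd4l, −0.70 to 0.22 for mt-Th, −0.66 to 0.39 for mt-Ts2, −0.55 to 0.13 for mt-Tl2 and −0.15 to 0.023 for Polrmt. The causes were not tested.

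The difference in ribosomal RNA as a percent of protein-coding reads, −0.20 points, was −5.39 when the base was the median protein-coding gene, and for transfer RNA 0.55 became 15.9, because that base is smaller. With 3 sgKrt19 tumors, low rows were estimated least well, with standard errors of 0.48 for mt-Tq and 0.44 for mt-Ts2.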

Other observations

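The nuclear genes for the other subunits of complexes I, III, IV and V were described apart from the mitochondrial genes. Of 86 symbols listed under older and newer names, 70 were in the table and tested. 33 were called higher in sgKrt19 tumors and 0 lower, beside 17.9% and 16.0% over all tested rows, and the log2 fold change was above 0 in 70 of 70 with a median of 0.50, against 0.44 for the 13 mitochondrial protein-coding genes. Cox5a, a subunit of cytochrome c oxidase, read 3378, 2678, 3472 and 2217 in sgScramble and 7292, 5201 and 6000 in sgKrt19 tumors, and was higher by 1.08 (standard error 0.18 and adjusted p = 0.00148 by limma). Atp5e, the epsilon subunit of ATP synthase, was higher by 0.82 (standard error 0.24 and adjusted p = 0.0242 by limma). With the length index as a second term 2 of 70 were called, Cox5a higher by 0.55 (adjusted p = 0.0166 by limma) and Atp5h, another ATP synthase subunit, lower at −0.48 (adjusted p = 0.0123 by limma), which was named after its value was seen. Atp5e was then at 0.030. These subunit genes were not left out of the genes that define the index, so those under 1000 bases may be part of it. Such genes are set against an index made partly from themselves. The smaller count therefore does not separate gene length from a change of these genes. The part of the length balance in the difference was not tested beyond this fit.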
